A study of Danio rerio with 4 samples.

Results

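Of 32105 genes counted in zebrafish skin, 9 encode the fibrillar collagen chains described here: col1a1a, COL1A1 and COL1A2 of type I, COL5A1, COL5A2, col5a2b and col5a3a of type V, and COL11A1 and col11a1b of type XI. They were chosen by Ensembl gene identifier for the collagen type they belong to, and all 9 passed the filter on low counts. The skin came from male fish, in 4 RNA-seq libraries: 1 from fish of 5 months and strain AB JxTu, 2 from fish of 24 months and strain AB JxTu Tg(wt1b:GFP) (replicates 1 and 2), and 1 from fish of 30 months and strain AB JxTu. The wt1b:GFP line carries a transgene in which wt1b sequence drives a green fluorescent protein, and it was used at 24 months only, so the transgenic line and that age cannot be told apart. The labels name neither the number of fish behind a library nor the part of the body from which the skin was taken.

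Fibrillar collagens are rod-like triple helices of 3 chains that assemble side by side into the tensile fibrils of the dermis. Type I is the bulk of such fibrils in skin, scale and bone. Types V and XI are minor chains that co-assemble with it, start fibril growth and limit fibril width, and in cartilage type XI does the same for type II collagen. Teleost type I collagen has a further chain beside α1(I) and α2(I), called α3(I). It is encoded by a duplicate of the α1 gene, which RefSeq lists as col1a1b with the synonym alpha3(I). The table used for names gives the symbol col1a1a to ENSDARG00000012405 and COL1A1 to ENSDARG00000035809, so the COL1A1 of this account is by elimination col1a1b. Likewise COL5A2 is the paralogue that RefSeq calls col5a2a, and COL11A1 is by elimination col11a1a.

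The libraries held from 11833498 to 20441260 counts, and between 19409 genes (replicate 2) and 24481 genes (replicate 1) had at least 1 count. Some markers of other tissues were uneven between the libraries. A list of 12 germ cell genes summed to 933 CPM at 5 months, 892 CPM in replicate 1, 2.28 CPM in replicate 2 and 14.02 CPM at 30 months, and 9 of its 12 genes had no counts in replicate 2. With edgeR's quasi-likelihood test, 8 of the 11 germ cell genes tested passed as lower at 30 than at 24 months, beside 0.683% of all genes. DESeq2 called 0 of them, as did edgeR with library totals alone, with a filter at a mean of 5 CPM or under its newer dispersion estimate. That direction came from replicate 1, since the list's sum in replicate 2 was below that at 30 months. One muscle gene, ACTA1 (ENSDARG00000055618), passed as lower at 24 than at 5 months, beside 0.125% of all genes, and lost the call under the same 3 edgeR settings. A list of 22 skeletal muscle genes summed to 29651.6, 16978.6, 11767.4 and 28405.4 CPM in the same order. Single genes of that list differed in direction between 5 and 30 months, with pvalb2 at 4631.4 and 79.4 CPM and ckmb at 3939.9 and 7500.0 CPM. Some epidermal markers were abundant in every library, among them the keratin gene krt5. It stood at 21076.6 CPM at 5 months, 26295.8 CPM in replicate 1, 49233.5 CPM in replicate 2 and 28646.6 CPM at 30 months. Levels are CPM, counts relative to the library size, after scaling of the libraries by the trimmed mean of M-values (TMM), unless a value is given per kb of transcript.

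The 3 genes of type I collagen were among the most abundant transcripts of 2 libraries, and replicate 2 held more than 14 times as much of each as replicate 1. Together they took 4.65% of all counts at 5 months (95% exact binomial interval from 4.64% to 4.66%), 0.467% in replicate 1 (0.464% to 0.470%), 5.02% in replicate 2 (5.01% to 5.03%) and 0.633% at 30 months (0.629% to 0.636%). The intervals cover counting error only. The libraries thus fall into a high pair, made of the 5-month library and replicate 2 of 24 months, and a low pair, made of replicate 1 of 24 months and the 30-month library. The levels did not follow the order of age.

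For col1a1a, which encodes the α1(I) chain, the level was 13099.6 CPM at 5 months, 1210.1 CPM in replicate 1, 17854.0 CPM in replicate 2 and 2088.5 CPM at 30 months. COL1A1, the paralogue for the α3(I) chain, stood at 14839.2, 1728.6, 25108.4 and 2789.7 CPM in these libraries, and it was the most abundant of the 9 in each of them, also per kb. COL1A2, which encodes the α2(I) chain, stood at 12712.6, 1130.0, 18502.9 and 1912.0 CPM. Each of the 3 genes had its highest level in replicate 2 and its lowest in replicate 1. The highest level was 14.8 times the lowest for col1a1a, 14.5 times for COL1A1 and 16.4 times for COL1A2. Ranked by CPM among all genes, COL1A1 was number 4 at 5 months, 52 in replicate 1, 2 in replicate 2 and 37 at 30 months. In a bulk library, fewer cells that make collagen and less collagen RNA per cell cannot be told apart.

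**Figure D1:**
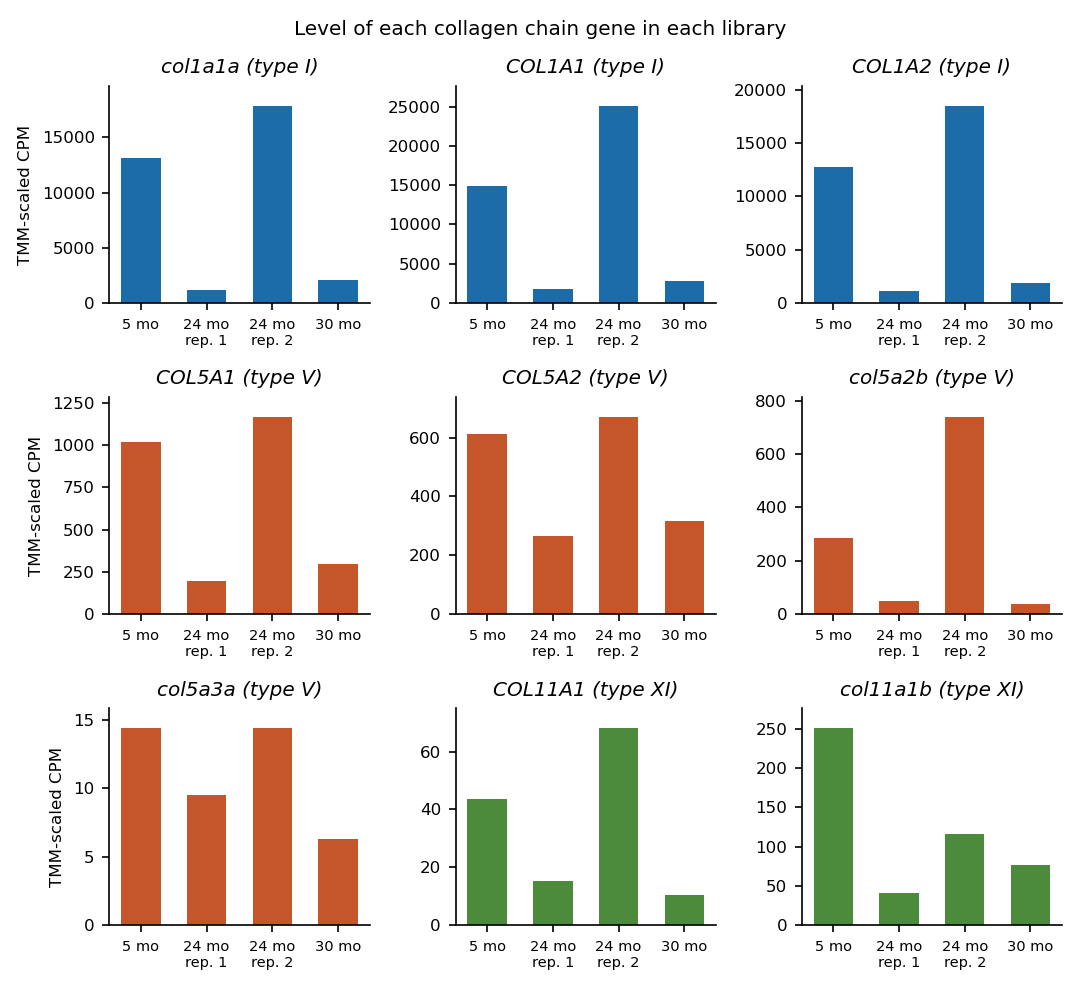
TMM-scaled CPM (vertical axis, linear, starting at 0 and with its own scale in each panel) of the 9 collagen chain genes in the 4 libraries, blue for type I, orange for type V and green for type XI. Bars are single libraries. The 5-month library and 24-month replicate 2 are high and 24-month replicate 1 and 30 months are low for the type I genes, with COL1A1 at 14839.2, 1728.6, 25108.4 and 2789.7 CPM from left to right.

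Per kb of transcript, on the scale that allows levels of different genes to be compared, the 3 type I genes lay close together within each library. At 5 months they stood at 2176 (col1a1a), 2645 (COL1A1) and 2210 (COL1A2) CPM per kb. In replicate 1 the values were 201, 308 and 197, in replicate 2 they were 2965, 4476 and 3217, and at 30 months they were 347, 497 and 332 CPM per kb. The COL1A1 gene was the highest of the 3 everywhere, at 1.22 times col1a1a at 5 months, 1.53 and 1.51 times in replicates 1 and 2, and 1.43 times at 30 months.

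Type V collagen genes followed the same division of the libraries with unequal ranges. COL5A1, which encodes the α1(V) chain that most type V molecules contain, stood at 1019.5 CPM at 5 months, 195 CPM in replicate 1, 1167 CPM in replicate 2 and 294 CPM at 30 months. COL5A2, one of the α2(V) paralogues, stood at 612, 264, 671 and 317 CPM. The highest level of COL5A2 was 2.54 times the lowest, the narrowest range but one among the 9 genes. Its paralogue col5a2b had the widest range of the 9, 19.3-fold, with 284 CPM at 5 months, 47.5 CPM in replicate 1, 740.0 CPM in replicate 2 and 38.3 CPM at 30 months. The gene col5a3a, for an α3(V) chain, was the least abundant, at 14.4, 9.52, 14.4 and 6.30 CPM, on 300, 219, 139 and 120 counts.

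The type XI genes both encode α1(XI) chains. COL11A1 stood at 43.7 CPM at 5 months, 15.3 CPM in replicate 1, 68.3 CPM in replicate 2 and 10.3 CPM at 30 months, again a high and a low pair. The gene col11a1b had the same pairs with another order within the high pair. It stood at 252 CPM at 5 months, 41.0 CPM in replicate 1, 117 CPM in replicate 2 and 76.9 CPM at 30 months. It was highest at 5 months, and both older ages lay below that library. Of the 9 genes, 7 were highest in replicate 2, with col5a3a and col11a1b highest at 5 months, and 6 were lowest in replicate 1, with col5a2b, col5a3a and COL11A1 lowest at 30 months.

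Because both genes of a ratio come from the same library, chain ratios do not depend on the scaling between libraries. The share of col1a1a in the counts of the pair col1a1a and COL1A1 was 46.9% at 5 months (95% exact binomial interval from 46.8% to 47.0%), 41.2% in replicate 1 (40.8% to 41.6%), 41.6% in replicate 2 (41.4% to 41.7%) and 42.8% at 30 months (42.5% to 43.1%). The replicates of 24 months differed by 0.380 percentage points in this share, although their levels of both genes lay more than 14-fold apart. The share at 5 months was outside the range of the other libraries by more than the gap between the replicates. Set against the mean of the 2 paralogues per kb, COL1A2 stood at 0.917 at 5 months, 0.772 in replicate 1, 0.865 in replicate 2 and 0.788 at 30 months. The replicates differed by 0.0928 in this ratio, and the value at 30 months lay between them. No test was made on the ratios, since with 1, 2 and 1 libraries an exact permutation test between an age with 1 library and 24 months cannot go below a p of 0.333.

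In the α2(V) pair the proportion of the paralogues changed with the library. The share of col5a2b in the counts of COL5A2 and col5a2b was 31.7% at 5 months (31.0% to 32.3%), 15.2% in replicate 1 (14.4% to 16.1%), 52.5% in replicate 2 (51.6% to 53.3%) and 10.8% at 30 months (10.05% to 11.55%). In replicate 2 the 2 paralogues were about equal in counts, while in the other 3 libraries COL5A2 was in excess. The gap between the replicates, 37.2 percentage points, was wider than that between 30 and 5 months. COL5A1 against the sum of both α2(V) genes, per kb, was 0.586 at 5 months, 0.324 in replicate 1, 0.425 in replicate 2 and 0.428 at 30 months. Here the 5-month library was the highest and the 30-month value was close to that of replicate 2. The level of col5a3a per kb was 2.04% of that of COL5A1 at 5 months, 7.04% in replicate 1, 1.78% in replicate 2 and 3.10% at 30 months.

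The share of col11a1b in the counts of the α1(XI) pair was 85.2% at 5 months (84.3% to 86.1%), 72.8% in replicate 1 (70.3% to 75.2%), 63.1% in replicate 2 (60.8% to 65.3%) and 88.1% at 30 months (86.5% to 89.7%). Both 24-month libraries lay below the libraries of 5 and 30 months. The gap between the replicates was 9.73 percentage points. The lower shares were in the libraries of the reporter line, and age and line cannot be told apart here.

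The minor chains took a larger proportion of the fibrillar collagen RNA where type I was low. Per kb, the 4 type V genes summed to 4.05% of the 3 type I genes at 5 months, 11.78% in replicate 1, 3.78% in replicate 2 and 8.61% at 30 months. The 2 type XI genes summed to 0.510% of type I at 5 months, 0.992% in replicate 1, 0.220% in replicate 2 and 0.894% at 30 months. For type V the replicates lay 7.999 percentage points apart and enclosed the values of both other ages. As type I is the denominator, these proportions carry its range as well as that of the minor chains. They also leave out the type V and XI genes that are not among the members, so they are not totals of those types. One such gene, col5a3b of type V, stood at 48.9 CPM at 5 months, 37.8 CPM in replicate 1, 96.5 CPM in replicate 2 and 38.5 CPM at 30 months. COL11A2 of type XI stood at 78.8, 16.2, 63.3 and 12.2 CPM in the same order.

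**Figure D2:**
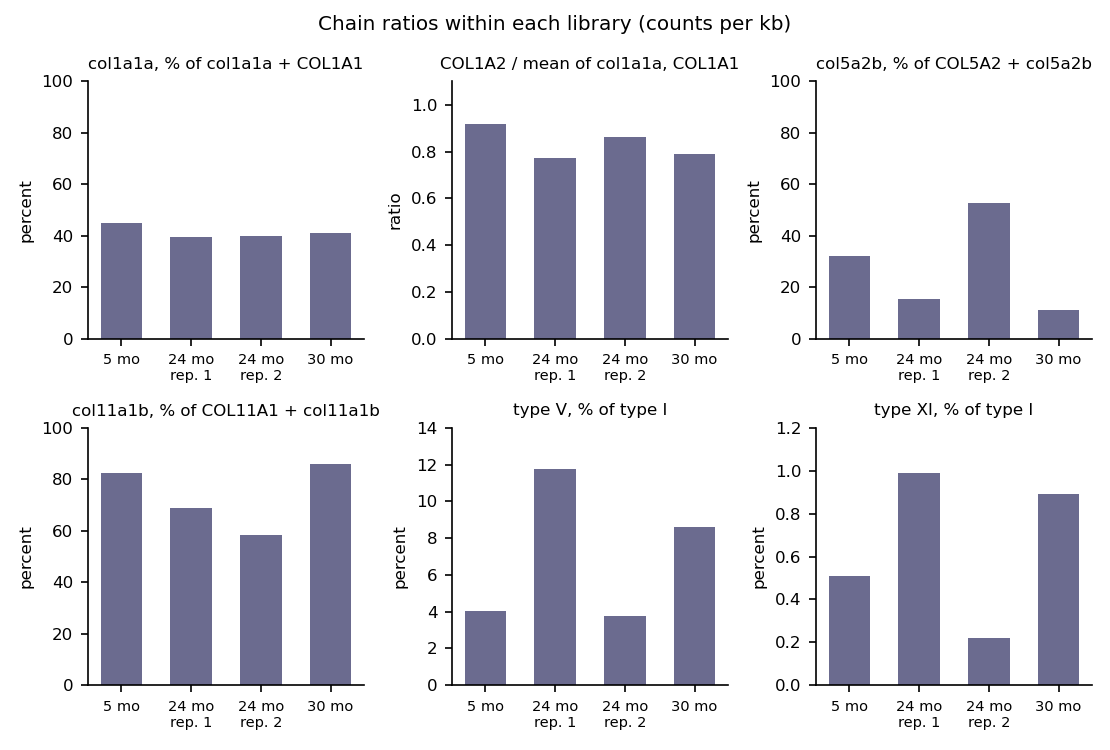
Chain ratios in each library from counts per kb, in percent or as a ratio (vertical axes, all from 0, with the 3 shares of a pair on a common scale of percent). Bars are single libraries. The share of col1a1a is nearly flat (45.1%, 39.5%, 39.8% and 41.1% per kb), the share of col5a2b runs from 10.97% to 52.9%, and the proportion of type V to type I is highest in replicate 1 at 11.78%.

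Between 30 and 5 months, the 2 ages with the same strain label, every one of the 9 genes was lower at 30 months. There is 1 library at each age, so this difference has no replicate check. On the log2 scale with a prior count of 2, the differences were -2.65 for col1a1a, -2.41 for COL1A1 and -2.73 for COL1A2, which is 6.27-fold, 5.32-fold and 6.65-fold lower at 30 months. For type V they were -2.89 for col5a2b, -1.80 for COL5A1, -1.18 for col5a3a and -0.95 for COL5A2, and for type XI they were -2.07 for COL11A1 and -1.71 for col11a1b. All but COL5A2, 8 of the 9 genes, lay at least 2-fold lower, beside 14.8% of the 13182 genes that averaged 5 CPM or more. The median difference was -2.07 over the 9 genes and 0.06 over all those genes. Except for col5a3a and col11a1b, these differences were smaller than those between the 2 libraries of 24 months. Replicate 2 was above replicate 1 by a log2 difference of 3.88 at the median of the type I genes, 1.96 for type V and 1.83 for type XI, and 8 of the 9 genes lay at least 2-fold higher in replicate 2, beside 20.1% of all genes.

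The comparison of 24 with 5 months sets old skin against that of young adults, but the reporter line differs with the age. Its answer for these genes turned on the replicate. With replicate 1 alone, 8 of the 9 genes, all but col5a3a, were at least 2-fold lower than at 5 months, beside 9.48% of all genes, and the 3 type I genes lay from 8.58-fold to 11.2-fold lower. With replicate 2 alone, 1 gene, col5a2b, was at least 2-fold higher, beside 20.7% of all genes, and 1 gene, col11a1b, was at least 2-fold lower, beside 22.5%. The type I genes then stood from 1.36-fold to 1.69-fold higher than at 5 months. The level at 5 months fell inside the range of the 24-month pair for 7 of the 9 genes, with col5a3a and col11a1b outside it, while 62.9% of all those genes lay outside it. The gene col11a1b was lower in both replicates, with log2 differences of -2.62 and -1.11.

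The test over both replicates called none of the 9 genes in 24 against 5 months. With edgeR's quasi-likelihood test and Benjamini-Hochberg adjustment over 21535 genes, of which 0.125% passed at 0.05, each of the 9 had an adjusted p of 1. The log2 difference between 24 and 5 months was -0.46 (SE 1.98) for col1a1a, -0.15 (SE 2.15) for COL1A1, -0.37 (SE 1.99) for COL1A2 and 0.47 (SE 0.97) for col5a2b. At an unadjusted p under 0.05, which 2.03% of all genes had, stood 1 of the 9, col11a1b, with a log2 difference of -1.68 (SE 0.84, unadjusted p = 0.0454 by edgeR). DESeq2 called 0 of the 9 and had 0 of them at an unadjusted p under 0.05, beside 2.10% of all genes. Only the 24-month pair gives a spread in this fit, averaged across genes, and it stands for the spread of the other ages. The type I genes had SEs between 1.98 and 2.43 on the log2 scale in both comparisons of ages. Each SE is the size of the log2 difference over the square root of the F statistic of edgeR's test. It thus carries the averaged spread and not that of the gene alone.

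The comparison of 30 with 24 months lies within old age, and here too the line differs with the age. The level at 30 months lay inside the range of the 24-month pair for 6 of the 9 genes, while 63.4% of all genes lay outside that range. The exceptions were col5a2b, col5a3a and COL11A1, which were lower at 30 months than in either replicate. Against replicate 2 alone, 8 of the 9 genes were at least 2-fold lower at 30 months, beside 21.0% of all genes, and against replicate 1 alone none was at least 2-fold higher or lower, beside 26.8% of all genes in either direction. The 3 type I genes were higher at 30 months than in replicate 1, by a median log2 difference of 0.76, and lower than in replicate 2, by one of -3.17.

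Over both replicates, edgeR called 0 of the 9 genes in 30 against 24 months, where 0.683% of all genes passed, and DESeq2 called 0. The smallest edgeR p was that of col5a2b, with a log2 difference of -3.36 (SE 1.14, adjusted p = 0.221). Without replicate 2 its log2 difference was -0.31, and without replicate 1 it was -4.27. At an unadjusted p under 0.05, which 4.76% of all genes had with edgeR, stood 1 gene with edgeR (col5a2b) and 3 with DESeq2 (col5a2b, COL1A1 and COL1A2), beside 4.43% of all genes. COL11A1 had a log2 difference of -2.01 (SE 1.03, edgeR adjusted p = 1), which was -0.56 without replicate 2 and -2.72 without replicate 1. The log2 differences of the type I genes were -2.19 (col1a1a), -2.27 (COL1A1) and -2.36 (COL1A2), with SEs from 2.25 to 2.43.

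A slope over age used all 4 libraries. All 9 slopes were below 0, from -0.31 for col5a2b to -0.75 for col11a1b on the log2 scale per 10 months, with a median of -0.51, against a median of 0.02 over all genes. None of the 9 was called, and edgeR called 0.00% of all genes; 336 of 21535 genes (1.56%) had an unadjusted p under 0.05, and DESeq2 called 29. Of the 9 genes, 0 had an unadjusted p under 0.05 with either tool, and col11a1b was nearest with edgeR (SE 0.32, unadjusted p = 0.0508, adjusted p = 0.9999). Other edgeR settings put col11a1b at an unadjusted p under 0.05, with 0 of the 9 called. These were library totals alone (beside 332 of 21535 genes) and no filter on low counts (489 of 26037). A filter at a mean of 5 CPM (184 of 13181) and the newer dispersion estimate (675 of 21535) did so too. Without replicate 2 the slopes of the type I genes were -1.15 for col1a1a, -1.05 for COL1A1 and -1.18 for COL1A2, against -0.65, -0.51 and -0.63 with all libraries, and 7 of the 9 genes had an unadjusted p under 0.05 by edgeR, beside 3.33% of all genes, with 0 called. Without replicate 1 the slopes of the type I genes were -0.47, -0.33 and -0.44. In that fit 0 of the 9 genes had an unadjusted p under 0.05 by edgeR, beside 1072 of all 20671 genes. Of the 7 genes, the type I genes, COL5A1 and col11a1b were higher at 30 months than in replicate 1, by log2 differences from 0.59 to 0.91. Their levels in the fit without replicate 2 thus did not fall in order of age. Those of col5a2b and COL11A1 did, with differences of -0.31 and -0.56. The slope of col5a2b was -1.17 without replicate 2 and -0.11 without replicate 1, and that of COL11A1 was -0.79 and -0.33, against -0.44 with all libraries. Of the 9, col5a3a was the one whose levels fell in order of age with both replicates between the ages, which 6.77% of all genes did. Its replicate 2 had 14.38 CPM, against 14.4 CPM at 5 months.

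**Figure D3:**
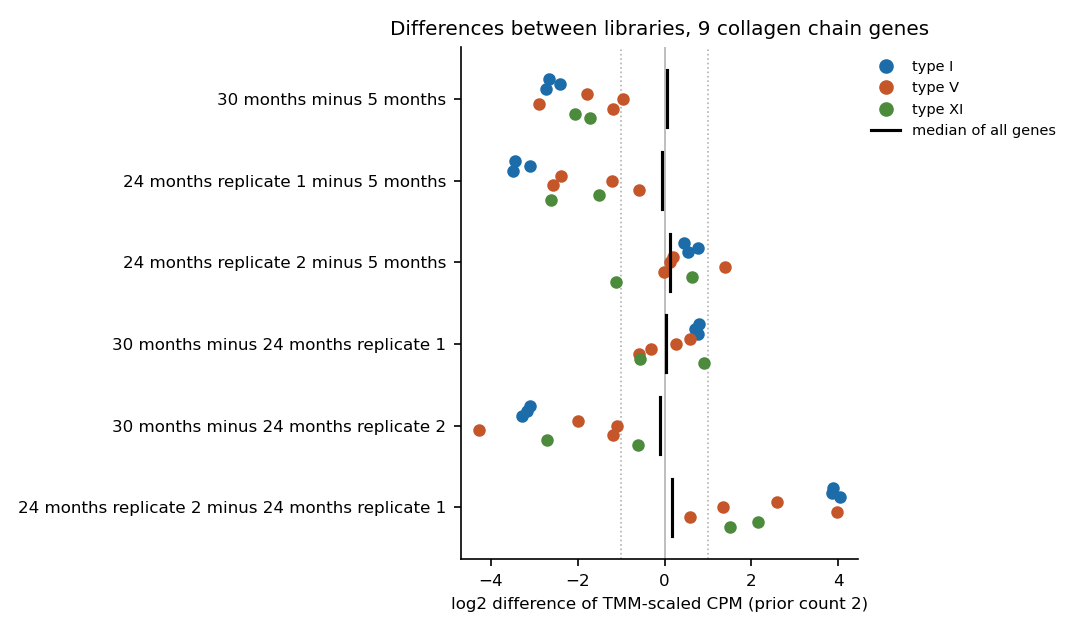
Log2 difference of TMM-scaled CPM (horizontal axis) between pairs of libraries (rows), 1 point per collagen chain gene, coloured by collagen type. Black bars mark the median of all genes that averaged 5 CPM or more and dotted lines a 2-fold difference. The type I genes lie near -2.6 for 30 minus 5 months and near 3.9 for replicate 2 minus replicate 1.

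The genes whose pattern over the 4 libraries came nearest to type I were sought among 3069 genes that averaged 50 CPM or more. The measure was the root mean square distance between log2 levels, each centred on the gene's mean over the 4 libraries, and the mean centred profile of the 3 type I genes. It is a description over 4 libraries, with no test. The type I genes themselves lay at 0.0502 (col1a1a), 0.0907 (COL1A1) and 0.0626 (COL1A2) from that profile, which they define. For the other near genes, the 9 and all genes without a symbol were left aside. Nearest of the rest was COL10A1 (ENSDARG00000101535) at 0.412, with 4422 CPM at 5 months, 285 CPM in replicate 1, 8739 CPM in replicate 2 and 507 CPM at 30 months. Its chain belongs to type X collagen, a network-forming collagen of hypertrophic cartilage and, in zebrafish, of bone-forming cells. A second gene with that symbol, COL10A1 (ENSDARG00000054753), lay at 0.676, with 964, 161, 934 and 78.2 CPM.

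The other near genes were paplnb, a papilin-like matrix gene (0.475), CLEC3B (ENSDARG00000099500, 0.558), the lipid desaturase gene SCD (0.633), SPARC, a collagen-binding matrix glycoprotein (0.691), BGN (ENSDARG00000017884, 0.732), which encodes the small proteoglycan biglycan, and the reductase gene CYB5R2 (0.742). SPARC stood at 2005 CPM at 5 months, 370 CPM in replicate 1, 2099.5 CPM in replicate 2 and 766 CPM at 30 months. Among the minor chains, col5a2b lay at 0.476 and COL5A1 at 0.557, as near as these genes. COL5A2 at 1.08, col11a1b at 1.02 and col5a3a at 1.29 were further away, and COL11A1 lay at 0.739.

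**Figure D4:**
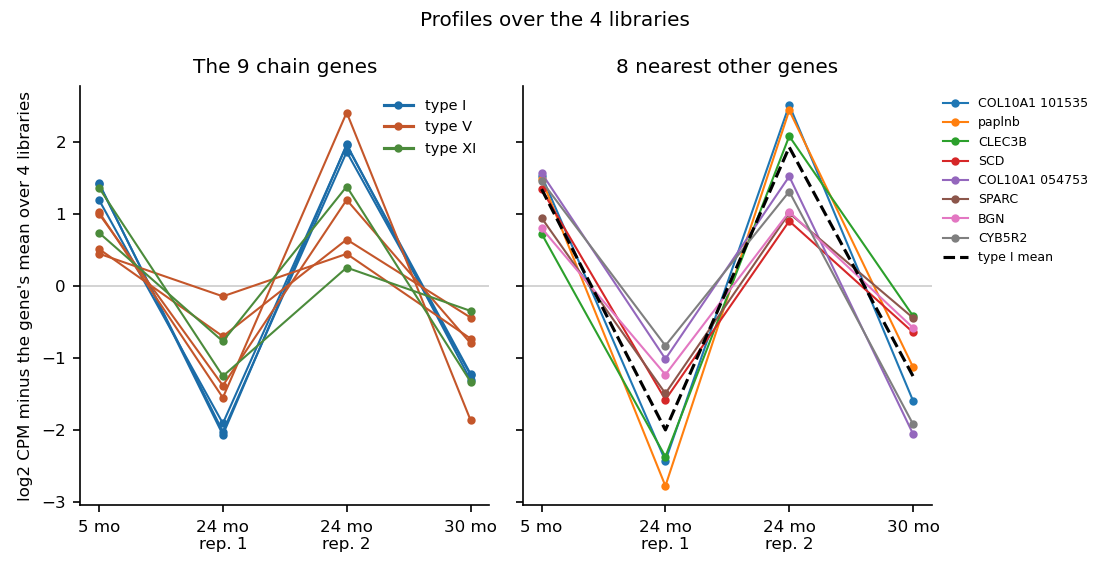
Log2 TMM-scaled CPM minus the gene's own mean over the 4 libraries (vertical axis) for the 9 collagen chain genes (left) and for the 8 other genes with a symbol nearest to the mean type I profile (right, dashed black). Lines join the values of 1 gene and do not mark a course. The type I mean is 1.34 at 5 months, -2.004 in replicate 1, 1.92 in replicate 2 and -1.26 at 30 months.

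Further fibrillar collagens, and genes for the making, binding and turnover of such collagen, were taken from 7 lists. The lists held 109 genes in all outside the 9, of which 108 were tested. None of the 108 passed in 24 against 5 months or in 30 against 24 months with edgeR, and none with DESeq2. At an unadjusted p under 0.05 edgeR had 5 and 3 of the 108, where 2.03% and 4.76% of all genes had one. DESeq2 had 5 and 2 of 109, beside 2.10% and 4.43% of all genes. For the slope both tools called 0, with 4 (edgeR, beside 1.56%) and 3 (DESeq2, beside 2.32%) at an unadjusted p under 0.05. Further fibrillar collagens numbered 6 and summed to 310 CPM at 5 months, 105 CPM in replicate 1, 294 CPM in replicate 2 and 127 CPM at 30 months. Their most abundant member, COL2A1 (ENSDARG00000011407), whose type II chain is the main collagen of cartilage, stood at 170, 41.9, 125 and 71.4 CPM, and COL11A2, which encodes α2(XI), stood at 78.8, 16.2, 63.3 and 12.2 CPM. Both showed the high and low pairs of libraries that the 9 genes showed. The other gene of the symbol COL2A1 (ENSDARG00000069093) did not, at 6.38, 5.52, 0 and 0.42 CPM, on 133, 127, 0 and 8 counts.

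The enzymes and chaperones that modify and fold procollagen chains had a summed level with a narrower range than that of the collagens, while single genes of the list ranged more widely. The 23 genes summed to 1055.4 CPM at 5 months, 793 CPM in replicate 1, 1078.3 CPM in replicate 2 and 795 CPM at 30 months, beside 42876.4, 4641.3, 64242.8 and 7532.5 CPM for the 9 collagen genes. PPIB, a prolyl isomerase of the endoplasmic reticulum and the most abundant of them, stood at 300.3, 332, 562 and 304 CPM, and P4HB, a subunit of prolyl 4-hydroxylase, at 248, 174, 114 and 177 CPM. The gene p3h4, of the prolyl 3-hydroxylase family, stood at 8.98, 1.91, 0.207 and 5.14 CPM. SERPINH1 (ENSDARG00000075954), which encodes the collagen chaperone HSP47, stood at 42.2, 15.0, 3.41 and 30.9 CPM, lowest in the replicate in which the collagens were highest. The other gene of that symbol, SERPINH1 (ENSDARG00000019949), stood at 17.9, 13.99, 36.4 and 21.1 CPM and was highest there. For ENSDARG00000075954 the log2 difference between 24 and 5 months was -2.19 (SE 0.99, edgeR adjusted p = 1). FKBP10 (ENSDARG00000045129), another isomerase needed for collagen cross-linking, stood at 57.0, 10.04, 18.5 and 15.7 CPM.

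The 16 genes of procollagen export summed to 1094.8 CPM at 5 months, 864 CPM in replicate 1, 1738.0 CPM in replicate 2 and 783 CPM at 30 months. The most abundant, SEC23B, stood at 81.8, 127, 390.5 and 134 CPM. SEC24D, a coat protein of the vesicles that leave the endoplasmic reticulum, stood at 132, 74.9, 222 and 30.8 CPM. Its log2 difference between 30 and 24 months was -2.27 (SE 0.97, edgeR adjusted p = 0.671). That of sar1ab had the other sign, at 2.32 (SE 1.105, edgeR adjusted p = 0.890), with 17.7, 11.1, 0.724 and 29.9 CPM. The 11 genes of propeptide cleavage summed to 379, 433, 790.5 and 363 CPM. The most abundant, pcolcea, which enhances the removal of the carboxy-terminal propeptide, stood at 143, 289, 409 and 212 CPM, and BMP1 (ENSDARG00000028071), the protease that removes it, at 93.9, 78.3, 181 and 47.2 CPM. The 10 genes of the lysyl oxidase family, which cross-links fibrils, summed to 300.1, 222, 511 and 325 CPM. The most abundant, loxl2a, stood at 29.1, 89.7, 206 and 55.8 CPM and LOX at 63.3, 20.6, 53.5 and 102 CPM. In both 24-month libraries loxl2a was above 5 months, by a log2 difference of 2.34 in the fit (SE 0.97, edgeR adjusted p = 1).

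The 30 genes whose products coat or join fibrils summed to 9541.0 CPM at 5 months, 4070.2 CPM in replicate 1, 8843.1 CPM in replicate 2 and 6786.8 CPM at 30 months. Periostin, as POSTN (ENSDARG00000104267), was the most abundant of them and stood at 2028, 639, 1675 and 1060 CPM. Asporin (ASPN), a small leucine-rich protein that binds collagen, stood at 26.8 CPM at 5 months, against 1.22 and 1.55 CPM at 24 months and 5.62 CPM at 30 months, and its log2 difference between 24 and 5 months was -4.28 (SE 1.34, edgeR adjusted p = 0.536). The 13 genes of fibrillar collagen turnover summed to 988, 1089.0, 1363.9 and 1512.9 CPM, with the gelatinase gene MMP2 at 353, 300, 262 and 499 CPM. The list holds proteases together with the protease inhibitor genes TIMP2 and TIMP4, so its sum and median are not measures of collagen breakdown. The protease gene mmp13a stood at 12.0, 0.782, 1.97 and 2.15 CPM, and TIMP4 (ENSDARG00000100795) at 5.71, 17.6, 16.3 and 32.55 CPM.

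Between 30 and 5 months the median log2 difference of the members averaging 5 CPM or more was -1.25 for the further fibrillar collagens, -0.74 for modification and folding, -0.82 for export, -0.39 for propeptide cleavage, -0.15 for cross-linking, -0.25 for the fibril surface and 0.50 for turnover. For the 9 collagen genes it was -2.07, and for all genes 0.06, with 1 library at each age.

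Markers of the cells that could supply the collagens moved in different ways between the libraries. The fibroblast list of 15 genes summed to 447 CPM at 5 months, 714 CPM in replicate 1, 775 CPM in replicate 2 and 1052.1 CPM at 30 months, with 14, 15, 13 and 14 of its genes detected. This sum was not low in the libraries with low type I, but single genes of the list differed. The most abundant, CXCL12, stood at 98.98, 280, 231 and 328 CPM and thy1 at 127, 133, 87.7 and 338.5 CPM. Together these genes made most of the sum at 30 months. The receptor gene PDGFRA stood at 44.1, 23.5, 27.2 and 60.2 CPM. The gene twist2, at 9.31, 5.08, 12.7 and 8.77 CPM, was high and low in the same libraries as type I. No other gene of the list was. TCF21 had no counts in replicate 2, and DPEP1 had counts in replicate 1 only. The scale and bone osteoblast list of 11 genes summed to 307, 124, 322 and 189 CPM, with 10 of 11 genes detected in each library and bglap at 0 in all 4. The sum was high and low in the same libraries as type I, as were PANX3, RUNX2, ENTPD5, PHEX and IFITM5. The share of all genes with this order was not counted, so no excess can be read for this list or the fibroblast list. The other detected genes of the osteoblast list lacked this order. Of these, runx2b, the most abundant, stood at 39.7, 30.5, 108.6 and 40.5 CPM. SP7, which encodes the osteoblast factor osterix, stood at 22.7, 3.74, 4.55 and 6.88 CPM. One of its genes, the osteocalcin-like bglapl, passed in 24 against 5 months with edgeR (log2 difference -5.32, SE 1.305, adjusted p = 0.0408), at 0.478 and 1.14 CPM at 24 months, against 31.7 CPM at 5 months and beside 0.125% of all genes. DESeq2 also called 1 gene of the list, while edgeR called 0 with library totals, with DESeq2 size factors, with no filter, with a filter at a mean of 5 CPM and under its newer dispersion estimate. ENTPD5, which scale and bone mineralisation needs in zebrafish, stood at 87.7, 8.82, 35.6 and 22.9 CPM. The part that differing amounts of these cells had in the collagen levels was not tested.

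**Figure D5:**
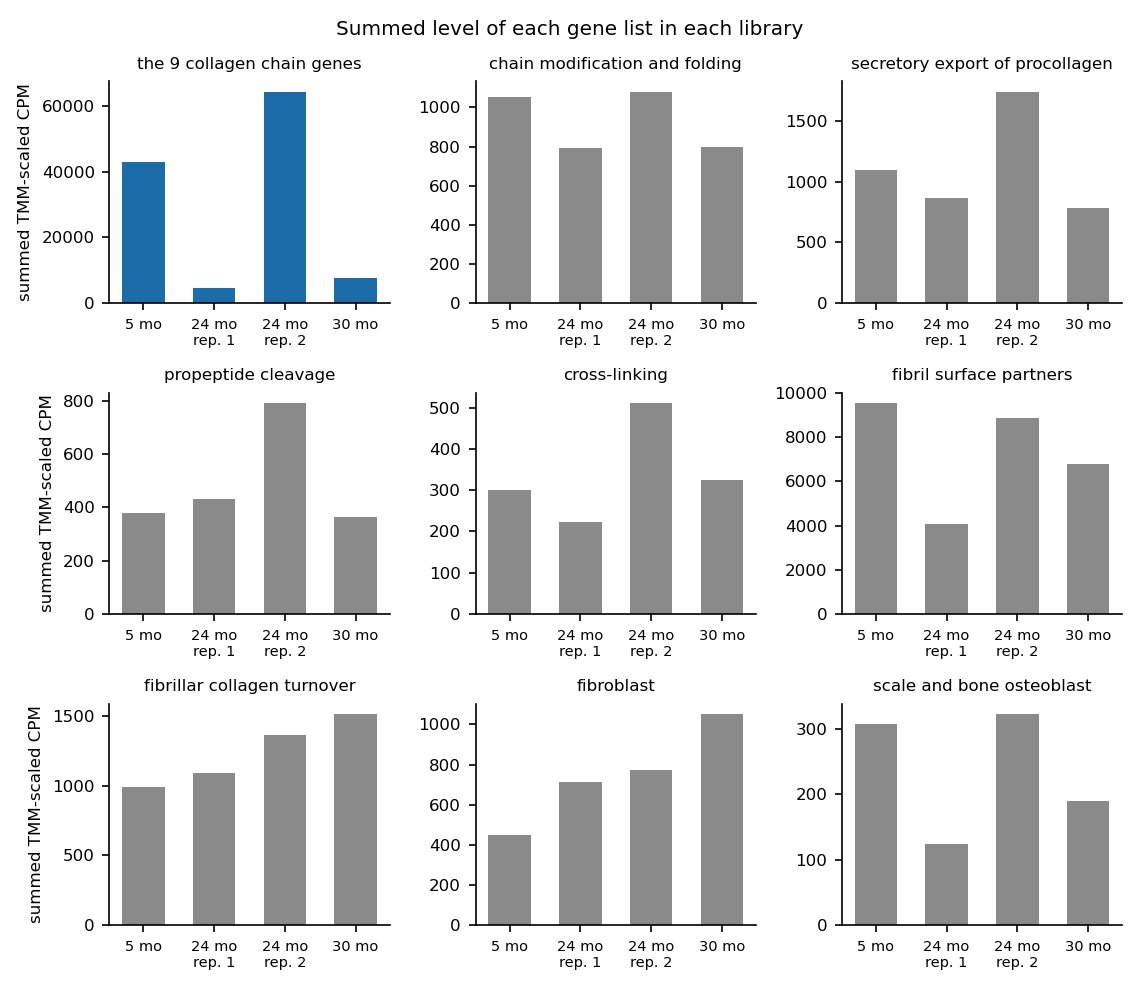
Summed TMM-scaled CPM (vertical axis, from 0, own scale in each panel) of the 9 collagen chain genes (blue) and of 8 gene lists (grey) in each library. The collagen sum runs from 4641.3 to 64242.8 CPM, while the chain modification and folding sum runs from 793 to 1078.3 CPM and the fibroblast sum is highest at 30 months, at 1052.1 CPM.

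The remaining marker lists are given beside the collagens for the same purpose, and their part was not tested either. The tendon list of 5 genes summed to 310 CPM at 5 months, 151 CPM in replicate 1, 938 CPM in replicate 2 and 496 CPM at 30 months, mostly through egr1, and TNMD, the gene of the tendon protein tenomodulin, stood at 32.3, 8.26, 6.41 and 25.8 CPM. The cartilage list of 18 genes summed to 199, 124, 242 and 246 CPM, with 9 of its genes, COL9A1 and both aggrecan genes among them, at 0 in replicate 2. COL9A1 and the aggrecan genes did not exceed 2.93 CPM in any library. Other genes of the list differed in replicate 2. The most abundant, hapln1a, was lowest there, at 120.4, 51.3, 29.7 and 122.5 CPM. SOX9 (ENSDARG00000043923) was highest there, at 33.2, 47.5, 129.6 and 65.8 CPM, and col9a1b stood at 2.69, 1.61, 24.7 and 29.98 CPM. The epidermal list of 15 genes summed to 32906.6, 44322.9, 78331.2 and 51344.6 CPM, highest in the replicate with the highest collagens and lowest at 5 months, where the collagens were high too. The keratin genes krt5, krt91 and krt4 were also highest in replicate 2. Other genes of the list were lowest there, among them epcam (388, 976.5, 337 and 1180.3 CPM) and cdh1 (364, 342, 315.5 and 668 CPM), and cyt1 and cyt1l had no counts there. The endothelial and mural list of 15 genes summed to 962, 956, 1354.5 and 1163.5 CPM. The macrophage list of 14 genes summed to 1026.4, 3314.7, 5573.6 and 2366.6 CPM. Most of that sum was cd74a, at 633, 1819.9, 3820.7 and 1389.1 CPM, and cd74b, at 212, 943, 1431.4 and 659 CPM. Over the 13 genes averaging 5 CPM or more, the median log2 difference of replicate 2 minus replicate 1 was -0.80, beside 0.17 over all genes. The list had 1 of the 3 genes named MPEG1 (ENSDARG00000078569) at 0 in all 4 libraries. Another, MPEG1 (ENSDARG00000055290), stood at 23.1, 84.4, 24.4 and 44.5 CPM.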

How the data were processed

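Per the labels' protocols, mRNA libraries were made from total RNA of skin with an Illumina multiplex kit. Per the submitters' processing notes, tools included featureCounts 1.4.6-p4, STAR 2.4.1d and CASAVA 1.7, with GRCz10 as build. The annotation release was not given in the sources used here, nor was the strand setting. Counts, as deposited, are whole reads per gene, from 11833498 to 20441260 per library. The labels do not say that the libraries are separate animals, so p-values measure only the spread between these samples, which may be technical.

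A second table, named RPKM by the authors, was treated as a score. It follows counts divided by gene length and by a library total, but the total came from a series of 24 values repeated down the rows. That series was solved from the 2 tables (the total used ran from 0.391 to 2.05 times the library's own), and the gene lengths it implies gave levels per kb, with lengths from 4968 bp (col5a2b) to 9767 bp (COL5A1).

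edgeR 4.0.16 in R 4.3.3 tested all genes kept by filterByExpr (21535), with TMM scaling, glmQLFit, glmQLFTest and Benjamini-Hochberg adjustment at 0.05, over 3 age groups or with age in months. The script was run on simulated counts with the same set spread for all genes, which checks the code and not how well the tests suit these libraries. Intervals of shares are exact (Clopper-Pearson, scipy 1.17.1). A 2-fold difference between libraries was counted, untested, among genes that averaged 5 CPM or more. Alternatives were DESeq2 1.42.0, other scalings, filters, dispersion settings and leaving out a replicate.

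Symbols come from a table of gene names, which covered 26269 of 32105 genes, and paralogues and overlapping RefSeq genes (names only, GRCz12tu) can share reads. In RefSeq, 5 of the 9 genes overlap a long non-coding RNA, and without a stated strand setting their reads cannot be told apart. Shared symbols are given with identifiers. Named genes are the 9 members, the most abundant and smallest-p members of each list, and the 8 genes with a symbol nearest to type I. Of the list genes the rule takes, some are left out here. Genes at 0 and col5a3b, P4HB, p3h4, twist2, RUNX2, PHEX, IFITM5, SP7, SOX9, cd74b and the further SERPINH1 and MPEG1 were named after their values were seen. So were krt4, krt91, epcam, cdh1, pvalb2 and TIMP2. The members, lists and rule were chosen with earlier results of these data known. Coordinates and sequences are not given.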

Additional observations from a re-analysis of the deposited data

How the results depend on the processing

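No paired analysis was possible because the labels give the libraries no replicate numbers shared between ages. None of the 9 collagen genes was called under any alternative that gave a test (without a replicate, only the slope could be tested). In 24 against 5 months the count of genes called over the whole table was 27, and 0 with library totals alone, with a filter at a mean of 5 CPM, or under edgeR's newer dispersion estimate. In 30 against 24 months it was 147, against 2 with library totals alone, 0 with a mean of at least 5 CPM, 1 with the newer dispersion setting and 68 with DESeq2. For the slope it was 0, against 29 with DESeq2 and from 0 to 372 when a replicate was left out (372 without replicate 1). With library totals, the median over the whole table moved by -0.20 (24 against 5 months) and -0.12 (slope). The number of genes 2-fold apart between 30 and 5 months was 3559, and 5955 with a mean of at least 1 CPM. The causes were not tested.

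Without replicate 1 or 2, log2 differences of 24 against 5 months ran from -3.36 to 0.45 (col1a1a), -3.02 to 0.76 (COL1A1), -3.41 to 0.54 (COL1A2), -2.31 to 0.20 (COL5A1), -1.135 to 0.13 (COL5A2), -2.50 to 1.38 (col5a2b) and -1.44 to 0.64 (COL11A1). For 30 against 24 months they ran from -3.10 to 0.79 (col1a1a), -3.17 to 0.69 (COL1A1), -3.27 to 0.76 (COL1A2), -1.99 to 0.59 (COL5A1), -1.08 to 0.26 (COL5A2) and -0.60 to 0.91 (col11a1b). For COL11A1 in 24 against 5 months the sign turned, to 0.020 with DESeq2 size factors and 0.018 with DESeq2, and for col11a1b in 30 against 24 months to 0.011 with library totals alone and 0.055 with a mean of at least 5 CPM, from main values of -0.07 and -0.03.

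With the RPKM-named table in place of counts per kb, whose library totals differ from gene to gene, the share of col1a1a read 33.9%, 45.4%, 34.2% and 35.1% (5 months, replicates 1 and 2, 30 months), COL1A2 over the mean of col1a1a and COL1A1 1.37, 0.918, 0.656 and 0.558, COL5A1 over the α2(V) genes 0.249 in replicate 1 and the share of col11a1b 76.1% in replicate 1. Coding lengths from RefSeq proteins were not run as an alternative. Low counts limit col5a3a most, with 120 to 300 counts per library.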
